A study of Homo sapiens with 35 samples.

Results

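The RNA Pol II ChIP-seq libraries of *ETS1* KD cells were compared with those of control cells, all treated with TWEAK. These are 4 of the 35 samples of the series, 2 replicates of control cells and 2 of *ETS1* KD cells, and the libraries were chosen by their labels. The classes of sites and the gene lists described were set with earlier results of these data known. The cells were U-87 MG, a long-used human line derived from a glioblastoma. The genotypes were control and ETS1 KD, where KD is a knockdown made with lentiCRISPRv2, a lentivirus that carries Cas9 and a guide RNA, so that the cells are a population and not 1 clone. The guide used for the RNA Pol II libraries is not in their labels. All 4 cultures received 10 ng/ml of TWEAK, with 48 h of treatment in the labels, after starvation in Opti-MEM. The RNA-seq libraries set beside them were 3 replicates each of control and *ETS1* KD cells with the same treatment. The study's methods call the RNA-seq replicates biological, whereas nothing in the sources used here says whether the RNA Pol II replicates came from separate cultures, and the spread between these may be technical. The RNA Pol II libraries of untreated control cells (2 replicates) and of TWEAK-treated *NFKB2* KD cells (2 replicates) were used as further readouts.

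RNA polymerase II transcribes protein-coding genes. It assembles with general factors at the promoter, often pauses a short way downstream of the start site, and is then released into the gene body, so that a ChIP-seq peak at a promoter can hold recruited, paused or moving polymerase and does not by itself measure transcription. The antibody recognises the repeats of the C-terminal domain of the largest subunit. ETS1 is the founding member of the ETS family of transcription factors, which bind a core of GGAA or GGAT, and is known in gliomas for genes of invasion and inflammation. TWEAK, a ligand of the TNF family, signals through the receptor Fn14 (*TNFRSF12A*) to the non-canonical NF-κB pathway and its subunit p52, the product of *NFKB2*. The study asked whether ETS1 is needed for the RNA Pol II that TWEAK brings to the genome.

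Each library has its own list of peaks, called by the authors. Peaks of the 4 lists that shared at least 1 bp were merged, which gave 65589 sites. A site was called kept when all 4 lists had a peak there, lost when both control lists and neither *ETS1* KD list had one, and gained when both *ETS1* KD lists and neither control list had one. A promoter was taken to reach from 1000 bp before to 100 bp after any start site of a gene in GENCODE release 44. Fold enrichment is the authors' ratio of ChIP signal to background at a peak summit.

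The sequences of 9 sites on which the results turn are printed first, so that each can be read beside its values. For promoters these are the 200 bases directly upstream of the main (MANE Select) start site, read 5′ to 3′ on the strand of the gene. For sites outside promoters they are the 201 bases around the summit, on the plus strand. Capitals mark any match to 5 consensus sequences on either strand, which are CCGGAAG (the ETS sequence of ELK-type factors), AGGAAG (a general ETS sequence), TGANTCA (AP-1), GGGANTTCC (κB) and CAGGTG (E-box). A match is a description of letters, and the absence of a match says only that these letters are not in the window. Promoter windows and sites that lost RNA Pol II are represented by *IL24* (chr1:206897243-206897442), the lost promoter with the clearest fall in RNA, and by *CCL3* (minus strand, chr17:36090144-36090343), *TAF4B* (chr18:26226245-26226444), *HES1* (chr3:194135948-194136147) and a site outside genes whose nearest start site is that of *ANXA1* (chr9:73132414-73132614), all in hg38. None of these 5 windows holds a match. The printed promoter windows do not cover the whole peaks. At the lost site of *TAF4B*, CCGGAAG was within the 200 bp around the summit (position 26226510), which reach past the printed bases. Of the 200 printed bases, 78 at *IL24* and 84 at *CCL3* lay in a peak.
*IL24*: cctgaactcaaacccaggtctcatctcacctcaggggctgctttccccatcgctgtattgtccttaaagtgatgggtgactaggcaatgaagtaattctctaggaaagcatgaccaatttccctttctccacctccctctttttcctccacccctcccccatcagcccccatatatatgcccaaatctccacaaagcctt
*CCL3*: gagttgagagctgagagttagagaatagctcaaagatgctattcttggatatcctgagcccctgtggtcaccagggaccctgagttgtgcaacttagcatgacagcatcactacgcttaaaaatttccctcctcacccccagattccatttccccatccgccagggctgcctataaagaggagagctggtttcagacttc
*TAF4B*: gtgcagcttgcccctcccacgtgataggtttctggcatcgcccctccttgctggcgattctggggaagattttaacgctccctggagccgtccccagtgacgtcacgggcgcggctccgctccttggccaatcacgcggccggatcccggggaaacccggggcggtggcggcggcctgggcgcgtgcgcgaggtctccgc
*HES1*: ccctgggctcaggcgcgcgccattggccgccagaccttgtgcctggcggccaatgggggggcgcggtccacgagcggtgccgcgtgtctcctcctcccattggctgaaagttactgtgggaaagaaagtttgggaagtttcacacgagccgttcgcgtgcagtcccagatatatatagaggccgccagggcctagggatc
*ANXA1*: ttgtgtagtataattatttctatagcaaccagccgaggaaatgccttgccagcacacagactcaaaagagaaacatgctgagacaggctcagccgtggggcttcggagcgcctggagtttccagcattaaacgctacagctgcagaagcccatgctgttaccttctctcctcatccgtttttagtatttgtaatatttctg

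*ATF3* (chr1:212608561-212608760) and *CXCL2* (minus strand, chr4:74099196-74099395) kept RNA Pol II in all 4 libraries while their RNA fell. Both windows hold AGGAAG on the opposite strand, printed as CTTCCT. That sequence is common, since it lay within the 200 bp around the summit of 21.8% of the 18509 promoter sites. The *CXCL2* window also holds gggaatttcc, which resembles the κB sequence GGGANTTCC but is longer, so the search did not mark it.
*ATF3*: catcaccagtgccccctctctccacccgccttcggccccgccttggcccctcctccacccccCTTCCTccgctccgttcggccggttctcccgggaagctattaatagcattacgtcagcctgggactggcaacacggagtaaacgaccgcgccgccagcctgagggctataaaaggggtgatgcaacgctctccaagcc
*CXCL2*: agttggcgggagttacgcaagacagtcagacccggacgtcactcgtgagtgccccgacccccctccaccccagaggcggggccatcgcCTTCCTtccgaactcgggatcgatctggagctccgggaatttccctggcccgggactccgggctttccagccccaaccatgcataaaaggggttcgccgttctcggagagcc

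*CNRIP1* (minus strand, chr2:68319950-68320149) is a gained promoter that also carried an ETS1 peak in both ETS1 lists, and the site near *PHC2* (chr1:33433532-33433732) is the gained site outside promoters with the strongest peaks. Neither holds a match.
*CNRIP1*: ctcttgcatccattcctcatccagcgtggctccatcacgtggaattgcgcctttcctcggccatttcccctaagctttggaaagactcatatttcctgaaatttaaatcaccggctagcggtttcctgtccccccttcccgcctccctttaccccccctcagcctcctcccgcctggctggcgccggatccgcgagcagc
*PHC2*: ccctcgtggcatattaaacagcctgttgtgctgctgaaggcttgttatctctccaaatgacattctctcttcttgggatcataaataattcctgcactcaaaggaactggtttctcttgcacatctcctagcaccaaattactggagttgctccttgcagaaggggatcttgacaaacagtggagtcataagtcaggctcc

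The 2 control lists differed in length by more than the 2 *ETS1* KD lists. The control lists held 44672 and 27056 peaks and the *ETS1* KD lists 24710 and 29785. They covered 27446497, 16255505, 15177858 and 17439590 bp. Control replicate 1 stood apart in number, and 22978 sites (35.0% of all) were found in it alone. Read counts are not part of these lists, and the depth of the ChIP-seq libraries is unknown. Among the RNA-seq libraries, total counts were between 28384201 and 40192606. Of the marker genes, *VIM*, a mesenchymal filament gene, was at 14877 to 17685 CPM (counts scaled to the size of the library), whereas *GFAP*, the defining astrocyte filament, had 2 to 10 counts and *SOX2*, a neural stem factor, 0 to 2 counts in a library. The leukocyte gene *PTPRC* had 0 to 1 counts. *RBFOX3*, which marks neurons, had 0 counts in all libraries, which allows up to 3 counts in each. Other genes of the same marker lists were detected. The neuron genes *SYT1* and *SNAP25* were at 11.0 to 17.1 and 12.4 to 19.9 CPM. The neural stem gene *OLIG2* was at 0.528 to 1.52 CPM, and the astrocyte gene *SLC1A2* at 0.557 to 1.61 CPM. In bulk RNA, fewer cells of a kind and less RNA per cell cannot be told apart.

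The targeted gene was examined first. *ETS1* RNA was at 71.9, 73.1 and 87.6 CPM in control cells and at 28.2, 33.0 and 37.8 CPM in *ETS1* KD cells. The groups did not overlap, with a log2 fold change of −1.23 ± 0.15 (SE, adjusted p = 0.00112, edgeR quasi-likelihood test). The *ETS1* gene kept a promoter peak in all 4 libraries at an alternative start site (chr11:128515884-128523971 in control replicate 1), away from its main start site at position 128587558, with a fold enrichment of 36.1 and 25.3 in control and 21.3 and 22.3 in *ETS1* KD cells. A gene edited by Cas9 can go on being transcribed, so RNA Pol II at its promoter does not check the KD.

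Most sites with an RNA Pol II peak in both control lists also had one in both *ETS1* KD lists. Of the 65589 sites, 9503 were kept, 2247 were lost and 1065 were gained, and the remaining 52774 had peaks in any other combination of lists. Among these, 1117 and 1568 had both control peaks and a peak in only *ETS1* KD replicate 1 or 2. Lost and gained sites were weak. The median fold enrichment of lost sites was 4.76 and 4.66 in the 2 control libraries, and that of gained sites 4.31 and 4.38 in the 2 *ETS1* KD libraries. Kept sites had medians of 10.1 and 8.40 in control and 7.09 and 7.35 in *ETS1* KD cells. Kept sites were also wider, with a median of 1097 bp against 486 bp for lost and 515 bp for gained sites.

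The number of lost sites has to be read against pairs of lists that cross the conditions. Sites with a peak in exactly 2 lists numbered 2247 for both control lists and 1065 for both *ETS1* KD lists. For 1 control and 1 *ETS1* KD list they numbered 1261, 1947, 587 and 900. The lost sites outnumber each of the crossed pairs, while the gained sites lie within the range of the crossed pairs. With only 2 libraries against 2, an exact permutation test cannot reach p = 0.05, so no p-value is given for these counts. When the same number of peaks (24710, the strongest of each list) was used, 1471 sites were lost, 1299 were gained and 8777 were kept. The excess of lost over gained sites was thus far smaller once the lists were of equal length. The crossed pairs then numbered 867, 854, 823 and 931, below both lost and gained sites. Leaving out a library moved these counts and also loosened the rule, since a condition with 1 list left was judged by that list only. Without *ETS1* KD replicate 1, 3413 sites were lost and 10366 gained, and without *ETS1* KD replicate 2, 3905 were lost and 6828 gained, so that gained sites then outnumbered lost ones. Without control replicate 1, 9274 were lost and 2330 gained, and without control replicate 2, 25539 and 1904.

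**Figure D1:**
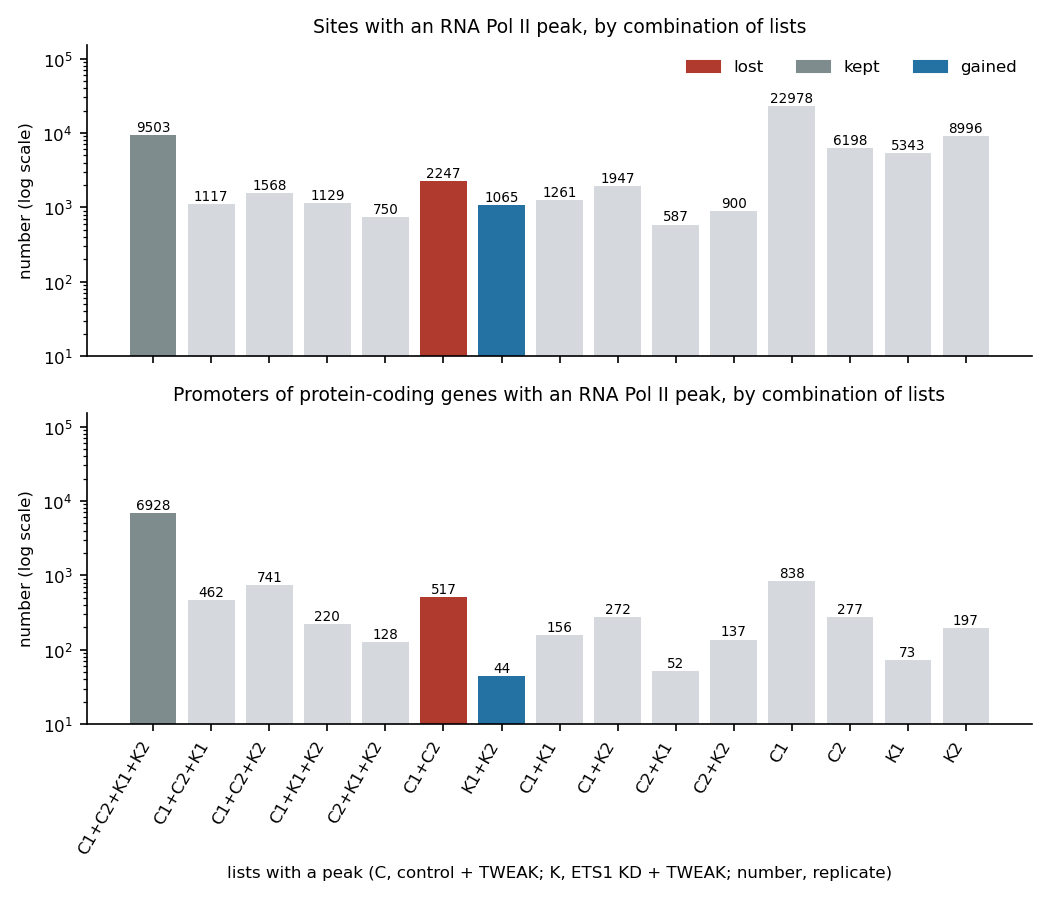
Number of sites (top) and of promoters of protein-coding genes (bottom) by the combination of peak lists that hold them, on log axes. C1 and C2 are the control and K1 and K2 the *ETS1* KD libraries, all with TWEAK. Kept sites (9503) are the second largest class after those found only in control replicate 1 (22978), and at promoters the 6928 kept windows exceed every other combination.

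At promoters the imbalance was larger. Of 20046 protein-coding genes, 11042 had a peak at a promoter in at least 1 of the 4 lists. RNA Pol II was kept at 6928 of these promoters (62.7%), lost at 517 (4.68%) and gained at 44 (0.398%). Promoters with 1 control and 1 *ETS1* KD peak numbered 156, 272, 52 and 137. The 517 lost promoters thus exceeded every crossed pair and the 44 gained promoters were below every one. With lists of equal length the counts were 6723 kept, 453 lost and 62 gained. With peaks of −log10 q of at least 5 only, they were 4889, 805 and 37. Weaker peaks are left out there, so a promoter counted as lost can still hold an *ETS1* KD peak below that threshold. A gene can have several start sites, and a state here covers all of its promoter windows together. At 54 of the 517 lost promoters the strongest peaks of the 2 control libraries lay in separate sites. At 19 (3.68%) the site extended out of the window and held an *ETS1* KD peak there, and the same held for control peaks at 3 of the 44 gained promoters.

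Lost sites were intermediate in place between kept and gained sites. Promoters made up 38.1% of lost sites, 73.9% of kept sites and 20.9% of gained sites, against 28.2% of all sites. Introns held 38.0% of lost, 14.1% of kept and 42.2% of gained sites. Exons held 7.92%, 2.96% and 16.4%, and intergenic sequence 16%, 9.10% and 20.5%. GC content in the 200 bp around the summit followed the share of promoters, with medians of 50.5% at lost, 62.5% at kept and 46.0% at gained sites.

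The RNA Pol II lists that did not define the states were then examined at these sites. Of the lost sites, 32.1% and 59.9% had a peak in the 2 lists of untreated control cells, and 41.6% and 10.1% in those of *NFKB2* KD cells, where the lower value belongs to a list of only 11175 peaks. Kept sites had such a peak in 79.5% and 96.3% without TWEAK and in 95.5% and 64.9% with *NFKB2* KD. For gained sites the shares were 13% and 40.8%, and 46.2% and 5.45%. Many sites that lost their peak on *ETS1* KD were therefore occupied in cells that had never received TWEAK, and replicates of the untreated cells differed widely in how many. At lost promoters, 453 of 517 (87.6%) had a peak in untreated replicate 2 and 167 (32.3%) in untreated replicate 1. The *NFKB2* KD and untreated comparisons share the control libraries used here, so these values are given side by side only.

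Binding of ETS1 itself was rare in every class of site. Overlap was counted over whole sites, and kept sites were wider (median 1097 bp) than lost (486 bp) and gained sites (515 bp). A peak in both ETS1 lists of TWEAK-treated control cells overlapped 2.89% of lost sites (exact 95% interval 2.24 to 3.67%), 6.53% of kept sites and 1.13% of gained sites, against 1.72% of all sites. The same shares for p52 were 3.03%, 5.22% and 1.13%, against 1.47% of all sites. Over all promoter windows of a protein-coding gene, ETS1 was found in both lists at 34 of 517 lost (6.58%), 610 of 6928 kept (8.80%) and 4 of 44 gained promoters (9.09%), against 883 of 11042 (8.00%) of all promoters with a peak. The share with ETS1 at lost promoters was thus below that at kept promoters, and the difference was not tested. Intervals cover counting error only, and neighbouring sites are not independent.

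**Figure D2:**
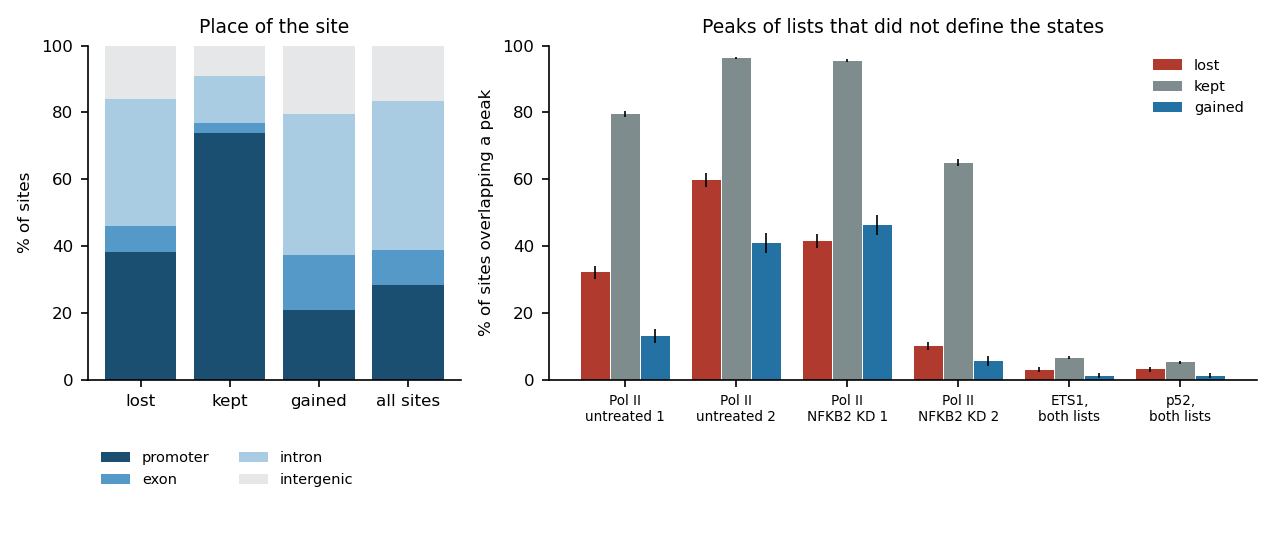
Left, share of lost, kept, gained and all sites at promoters, exons, introns and intergenic sequence (%). Right, share of lost, kept and gained sites that overlap a peak of 6 other sets of lists (%), with exact 95% intervals as error bars. Kept sites were covered best in every set, and ETS1 or p52 in both lists covered under 7% of each class.

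The letters of the sites gave a similar picture. CCGGAAG was within the 200 bp around the summit of 4.09% of lost, 7.45% of kept and 1.41% of gained sites, against 2.49% of all sites. Among promoter sites only, the shares at lost and kept sites were close, at 9.23% and 9.62%, and 2.24% of gained promoter sites held it. AGGAAG was at 21.4%, 22.1% and 19.2% of lost, kept and gained sites, against 20.6% of all. The AP-1 sequence TGANTCA was at 8.90%, 5.83% and 6.10%, against 7.02% of all sites. Outside promoters it stood at 11.2% of lost, 12.6% of kept and 5.94% of gained sites, with 7.95% of all sites outside promoters. AP-1 is the dimer of FOS and JUN proteins that binds many enhancers. GGGANTTCC was at 0.801%, 1.12% and 0.282% (all sites 0.729%), and CAGGTG at 15.3%, 12% and 15.8% (all sites 16.7%).

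The RNA of the genes was then set beside the state of their promoters. Over all 16879 genes tested, 191 (1.13%) had lower and 43 (0.255%) higher RNA in *ETS1* KD than in control cells at an adjusted p under 0.05 in edgeR's quasi-likelihood test. Of the 12835 protein-coding genes among them, 154 (1.2%) were lower and 40 (0.312%) higher. At lost promoters 473 genes were tested, of which 5 (1.06%) were lower and 0 higher, with a median log2 fold change of −0.0027. At kept promoters 53 of 6569 (0.807%) were lower and 19 (0.289%) higher, with a median of 0.0329. At gained promoters 0 of 36 were lower and 0 higher, with a median of 0.0901. The median over all protein-coding genes tested was 0.0179. The share of genes with lower RNA at lost promoters was therefore close to the background, and the loss of the promoter peak went with no general fall of RNA.

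Counts of 0 came with a few genes at an unadjusted p under 0.05. At lost promoters, 20 genes were higher and 32 lower by that measure, and DESeq2 called 2 higher and 6 lower. At gained promoters 1 was lower and 2 higher unadjusted, and DESeq2 called 0 in each direction. Genes without any peak at the promoter had the highest share of falls, with 55 of 2609 (2.11%) lower and 12 (0.460%) higher, and they were expressed at a low level, with a median log2 CPM of 1.75 against 5.6 for kept promoters.

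A wider grouping, made after the values were seen, compared all promoters with more control than *ETS1* KD peaks (2 against 1, 2 against 0 or 1 against 0) with the opposite. Of 2530 tested genes with more control peaks, 35 (1.38%) were lower and 0 higher, with 113 higher at an unadjusted p under 0.05 and 12 higher in DESeq2. Of 571 genes with more *ETS1* KD peaks, 2 (0.350%) were lower and 6 (1.05%) higher. DESeq2 called 57 lower with more control peaks, and 8 lower and 13 higher with more *ETS1* KD peaks. The medians were 0.0045 and 0.0681. Of all 10226 tested genes with any promoter peak, 99 (0.968%) were lower and 28 (0.274%) higher. The 1.38% lower with more control peaks was near the 1.2% of all protein-coding genes tested. Of the calls of higher RNA in edgeR, 22 lay at promoters with equal numbers of peaks and 12 at promoters without any peak. DESeq2 also called higher RNA at promoters with more control peaks. The medians of all groups stayed within 0.1 of 0.

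**Figure D3:**
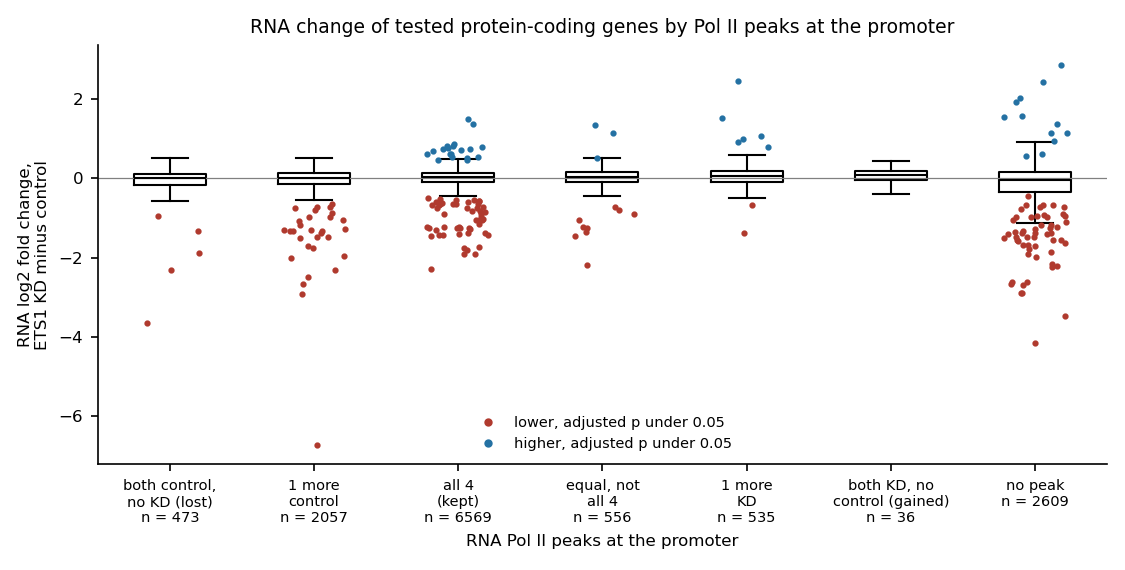
RNA log2 fold change (*ETS1* KD minus control) of tested protein-coding genes, grouped by the RNA Pol II peaks at the promoter, with the number of genes under each group. Boxes give the median and quartiles, whiskers reach up to 1.5 times the quartile range, and dots are genes lower (red) or higher (blue) at an adjusted p under 0.05. The boxes of lost (n = 473), kept (n = 6569) and gained promoters (n = 36) overlap and are centred near 0.

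The 5 genes with a lost promoter and lower RNA included an interleukin and a chemokine. *IL24*, a cytokine of the IL-10 family, had a promoter peak (chr1:206897365-206899120 in control replicate 1) at a fold enrichment of 11.0 and 6.73 in control cells and none in *ETS1* KD cells. Its RNA was at 17.4, 17.4 and 24.9 CPM in control and at 3.31, 4.63 and 4.09 CPM in *ETS1* KD cells, so that the groups lay far apart. The log2 fold change was −2.31 ± 0.17 (SE, adjusted p = 3.17e-05, edgeR). Of the other RNA Pol II lists, only untreated replicate 1 had a peak at this promoter, at 4.04.

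*MEF2C*, a MADS-box transcription factor of muscle, neurons and immune cells, had a site near its main start site (chr5:88882948-88883653) at a fold enrichment of 5.76 and 3.20 in control cells and without a peak in *ETS1* KD cells. Control replicate 1 alone had a further peak at an internal start site (chr5:88785466-88786011, 6.18). This was the 1 gene of the 5 with a promoter peak in both ETS1 lists, and these peaks need not lie at the same start site. Its RNA was at 7.35, 7.44 and 6.36 CPM in control and 2.02, 1.69 and 1.97 CPM in *ETS1* KD cells, with no overlap (log2 fold change −1.89 ± 0.25, adjusted p = 0.00227, edgeR). *FGF13*, which encodes an intracellular member of the fibroblast growth factor family, lost a peak of 5.76 and 10.3 at an upstream start site (chrX:139204849-139205556). *FGF13* RNA went from 8.32, 6.90 and 7.86 CPM to 3.93, 3.65 and 4.40 CPM (−0.94 ± 0.15, adjusted p = 0.00537, edgeR). The *FGF13* promoter was also occupied in untreated replicate 2 (10.9) and *NFKB2* KD replicate 1 (8.28), so its peak was missing in both *ETS1* KD libraries but not in all other KD libraries.

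*CCL3* and *ZNF474* did not enter by the rule for named genes and were looked at after their values were seen, to complete the set. *CCL3*, a chemokine that attracts monocytes, had a peak of 7.0 and 6.62 at its promoter (chr17:36089412-36090227) in control cells. *ETS1* KD replicate 2 had a weak peak of 3.72 in the same site but outside the promoter window, so the site as a whole was not lost. *CCL3* RNA was low, at 3.26, 3.88 and 4.22 CPM in control and 1.14, 1.75 and 1.63 CPM in *ETS1* KD cells (−1.33 ± 0.29, adjusted p = 0.0424, edgeR). The *CCL3* call was lost when any 1 of the 6 RNA libraries was left out, with log2 fold changes of −1.46 to −1.18. *ZNF474*, a zinc finger gene, had weak control peaks in its promoter window that did not overlap, at 4.63 in replicate 1 (chr5:122129586-122129765) and at 3.50 in replicate 2 (chr5:122129249-122129499). Neither formed a lost site by itself. *ZNF474* RNA fell from 2.04, 2.64 and 2.39 CPM to 0.293, 0.092 and 0.172 CPM (−3.64 ± 0.47, adjusted p = 0.00173, edgeR).

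Ranked by merged sites and not by promoter windows, the *HES1* start site is the strongest lost site at a promoter, a choice also made after the values were seen. *HES1*, a repressor downstream of Notch, had a site at chr3:194135898-194137836 with a fold enrichment of 29.95 and 10.4 in control cells and no peak in *ETS1* KD cells. *ETS1* KD replicate 2 had a separate weak peak (chr3:194135031-194135237, 3.72) further upstream, within the promoter window, so the promoter as a whole counts as neither lost nor kept. The site overlapped a peak in both ETS1 lists, which lay outside the promoter window. *HES1* RNA was barely detected, at 0.538, 1.02 and 0.916 CPM in control and 0.0587, 0.123 and 0.200 CPM in *ETS1* KD cells (−2.67 ± 0.50, adjusted p = 0.0167, edgeR). The *HES1* call was lost without control replicate 2 or 3 or *ETS1* KD replicate 1 or 2, with −2.65 to −2.35.

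The lost promoters with the strongest control peaks had no call in RNA. Ranked by the weaker of the 2 control peaks, they were *SORBS2* (17.1 and 10.9), *GARIN4*, *TAF4B* (13.9 and 10.0), *DAO* (19.3 and 9.89), *ACSF2* (11.5 and 9.54), *ZSCAN30* (10.8 and 9.24), *C14orf28* (9.80 and 8.43) and *CCNQ* (11.6 and 8.43). *SORBS2*, an adaptor of the actin cytoskeleton, had RNA at 21.0, 24.8 and 26.7 CPM in control and 23, 23.3 and 22.7 CPM in *ETS1* KD cells (log2 fold change −0.07 ± 0.12). *TAF4B*, a subunit of the general factor TFIID, had RNA at 11.8, 9.48 and 12.1 CPM against 7.48, 8.71 and 7.26 CPM (−0.51 ± 0.20, adjusted p = 0.309, edgeR). *C14orf28* RNA was at 3.30, 2.99 and 3.11 CPM against 2.17, 2.08 and 2.03 CPM (−0.58 ± 0.17, adjusted p = 0.139), a difference without overlap that missed the threshold. *ACSF2*, *ZSCAN30* and *CCNQ* had log2 fold changes of −0.35, −0.31 and 0.17, with adjusted p-values of 0.401 to 0.76. *GARIN4* and *DAO* had too few reads to be tested. At 3 of these 8 genes the *ETS1* KD libraries had a peak in the same site outside the promoter window. The site at an alternative start of *SORBS2* (chr4:185931767-185933531) was at 11.5 and 9.46 in *ETS1* KD cells, and that of *DAO* (chr12:108854009-108857988) at 9.69 and 11.6, so both sites were kept. The peak of *GARIN4* in control replicate 1 is the far end of the wide peak of *ATF3*, its neighbour (chr1:212606769-212624304), and so is no separate promoter peak.

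The strongest gained promoters were weaker than the strongest lost ones and had no call in RNA either. *CNN2*, which encodes the actin-binding calponin 2, had 6.13 and 8.13 in *ETS1* KD cells, *CNRIP1* 6.39 and 6.13, *STEAP3*, a ferrireductase, 5.91 and 6.21, and *STPG4*, *NUP210L*, *GNG3*, *PRELID3A* and *RNF144A* between 4.97 and 7.09. The site at *GNG3* (chr11:62706001-62706777) also held control peaks outside the window, at 8.88 and 6.46, and was a kept site. *CNN2* RNA was at 59.0, 87.3 and 87.6 CPM in control and 98.0, 58.5 and 89.8 CPM in *ETS1* KD cells, which overlap (0.07 ± 0.25). *STEAP3* RNA was at 169, 205 and 208 CPM against 238, 218 and 238 CPM (0.25 ± 0.14, adjusted p = 0.529, edgeR). *CNN2* also had peaks in both untreated lists and in *NFKB2* KD replicate 1, at 7.06, 9.48 and 13.6, and its missing peaks were those of the 2 TWEAK-treated control libraries and *NFKB2* KD replicate 2.

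Outside promoters the strongest lost sites lay in introns and intergenic sequence. They were an intron of long noncoding RNA genes (chr22:25291126-25291611, fold enrichment 11.0 and 12.6 in control cells), an intron of *SLIT3* (chr5:169117653-169118176, 14.2 and 10.1), a site 1927 bp upstream of *ZNF217* (chr20:53611524-53612157, 12.8 and 10.0), an intron of *DAGLB* (chr7:6421282-6421636, 11.0 and 8.43) and intergenic sequence 19351 bp from the start of *ANXA1* (chr9:73132091-73132772, 8.36 and 9.64). All 5 had a peak in both untreated lists, and none overlapped ETS1 or p52. *SLIT3*, a secreted guidance ligand, had the only nearby RNA change near the threshold, with a log2 fold change of −1.12 and an adjusted p of 0.0558.

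The strongest gained sites outside promoters included a pair near *PHC2*, a Polycomb gene. One lay 2537 bp upstream of its start (chr1:33433090-33433832, 8.63 and 9.74 in *ETS1* KD cells) and the other in an intron (chr1:33405020-33408432, 6.54 and 6.40). *PHC2* RNA had a log2 fold change of 0.05. Others lay in *C10orf55*, 6892 bp from the start of *PLAU* (chr10:73917565-73918801, 7.49 and 7.26), in an exon of *RFC5* (chr12:118031463-118034110, 6.95 and 6.94) and in intergenic sequence (chr10:31745273-31745734, 6.63 and 7.06). *PLAU*, the urokinase protease of invading cells, had a log2 fold change of 0.31 (adjusted p = 0.621, edgeR). None of the genes with the nearest start site passed the test.

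Genes were also grouped by the sites inside their bodies, a grouping made after the values were seen. RNA Pol II in the body of a gene includes polymerase that is elongating. Of 514 tested genes whose body (outside promoters) held lost but no gained sites, 19 (3.70%) were lower and 1 higher, with a median log2 fold change of −0.0168. Of 338 genes with gained but no lost sites, 1 was lower and 3 (0.888%) were higher, with a median of 0.0623. Of 6166 genes with any site in the body, 71 (1.15%) were lower and 20 (0.324%) higher, and the median was 0.0165. The 2 groups had a similar expression, with median log2 CPM of 5.80 and 6.13. With lists of equal length, 15 of 296 (5.07%) were lower and 0 higher for lost, and 1 lower and 3 higher of 437 for gained sites. Members of both groups were chosen by RNA Pol II peaks only, and the difference between the groups was not tested.

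The 19 genes with lower RNA and lost sites in the body had a kept promoter in 15 cases. The targeted gene *ETS1* itself, with 1 lost site in its body, is among these 15. *ADAMTS5*, an aggrecanase, had 9 lost sites in its body and a log2 fold change of −1.73 (adjusted p = 0.0129, edgeR). *FBXO32*, a ubiquitin ligase subunit, had 7 (−1.06, adjusted p = 0.00354, edgeR), *DYRK3*, a kinase, 4 (−0.55), and *SESN2*, *SMYD3* and *DUSP10* had 3 each (−1.37, −1.03 and −0.74). *IL6*, the inflammatory cytokine, had 1 lost site in its body, and its promoter had peaks in control replicate 1 (7.33) and *ETS1* KD replicate 1 (3.42) only. *IL6* RNA fell from 6.17, 4.88 and 6.83 CPM to 1.55, 0.95 and 1.43 CPM (−2.18 ± 0.20, adjusted p = 0.00019, edgeR). In the other direction, *CRIM1*, a membrane protein that binds BMP ligands, had 4 gained sites in its body and higher RNA (0.81), *ENC1* and *TNFSF9* had 1 each (0.53 and 0.62), and *IL1A* had 1 gained site with lower RNA (−1.30).

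Among kept promoters the question is whether the height of the peak moved with RNA. Fold enrichment as deposited was lower in both *ETS1* KD libraries than in both control libraries at 3669 of the 6569 kept promoters of tested genes, with a median log2 difference of −0.499, and control replicate 1 was the highest, with a median of 13.1 against 10.2, 8.10 and 8.33. Fold enrichment depends on depth and background, so the values were also quantile normalised over kept promoters, which sets the median difference to −0.0067. Whether *ETS1* KD lowered RNA Pol II overall cannot be told from these lists.

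After normalisation, the 53 kept promoters with lower RNA had a median log2 difference of −0.104 (quartiles −0.439 and 0.129), and 35 of 53 were below 0. The 19 with higher RNA had a median of 0.165, and 7 of 19 were below 0. Both *ETS1* KD libraries were below both control libraries at 20 of 53 and at 2 of 19, against 1281 of 6569 (19.5%) of all kept promoters. Leaving out each RNA Pol II library in turn gave medians of −0.181 to −0.0643 for genes with lower RNA and of −0.0573 to 0.249 for genes with higher RNA, so that the sign of the second rested on control replicate 2. The groups of promoters overlapped widely.

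The genes with the largest falls in RNA at kept promoters were *ATF3*, *NUPR1*, *GDF15*, *DDIT3* and *IL36B*. *ATF3*, a stress-induced bZIP factor, had a fold enrichment of 138 and 45.9 in control and 52.5 and 38.4 in *ETS1* KD cells, so that control replicate 1 alone stood apart. *ATF3* RNA was at 70.5, 75.7 and 83.2 CPM in control and 17.4, 14.9 and 14.5 CPM in *ETS1* KD cells (−2.30 ± 0.16, adjusted p = 3.15e-05, edgeR). *DDIT3*, which encodes the stress factor CHOP, had 85.9 and 51.4 against 43.5 and 45.1, and a normalised difference of 0.13. *DDIT3* RNA fell from 149, 119 and 117 CPM to 40.1, 39.8 and 29.3 CPM (−1.82 ± 0.18, adjusted p = 0.000235, edgeR), while its peak kept its rank among the kept promoters.

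*GDF15*, a stress cytokine of the TGF-β family, had both a lower peak and lower RNA. Its fold enrichment was 19.9 and 19.2 in control and 6.57 and 7.92 in *ETS1* KD cells, against 14.6 and 18.4 without TWEAK and 19.3 and 12.9 with *NFKB2* KD. The *ETS1* KD libraries were therefore the lowest of all 8. *GDF15* RNA was at 50.7, 57.5 and 62.2 CPM in control and 14.9, 15.6 and 15.1 CPM in *ETS1* KD cells (−1.90 ± 0.14, adjusted p = 3.17e-05, edgeR), and the normalised difference of the peak was −0.92. *NUPR1*, a stress-induced chromatin protein, had 9.18 and 7.23 against 6.5 and 3.72 and a log2 fold change in RNA of −1.91. *IL36B*, a cytokine of the IL-1 family, had 11.6 and 14.4 against 7.68 and 11.2, and its RNA went from 356, 334 and 322 CPM to 100.1, 112 and 89.3 CPM (−1.75 ± 0.16).

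The genes with the largest rises in RNA at kept promoters were *C3*, *HAS1*, *BMPER*, *CRIM1* and *ID1*. *C3*, the central complement component, had 9.51 and 11.8 in control and 7.14 and 6.13 in *ETS1* KD cells, while its RNA rose from 32.6, 54.3 and 80.1 CPM to 148, 109 and 178 CPM (1.38 ± 0.28, adjusted p = 0.0282, edgeR). RNA and peak thus went in opposite directions at *C3*, also after normalisation (−0.26). *HAS1*, a hyaluronan synthase, had 42.4 and 14.1 against 21.5 and 15.1, and its RNA rose from 44.9, 48.8 and 52.1 CPM to 84.9, 85.9 and 92.8 CPM (0.85 ± 0.13). *BMPER*, which encodes a secreted regulator of BMP ligands, *CRIM1*, and *ID1*, an inhibitor of helix-loop-helix factors, rose by 0.82, 0.81 and 0.80 on the log2 scale. The *BMPER* and *CRIM1* promoters had a peak in both ETS1 lists and the *ID1* promoter in 1 of them. The normalised differences of these 3 peaks were 0.31, −0.05 and 0.42. Among the 5 rises, *HAS1* held its call without any 1 RNA library. The call of *C3* was lost without control replicate 1 or 2 or *ETS1* KD replicate 1 or 3 (1.11 to 1.35), that of *BMPER* without control replicate 2 or *ETS1* KD replicate 3 (0.78 and 0.76), that of *CRIM1* without any 1 library but control replicate 3 (0.70 to 0.86), and that of *ID1* without any 1 library (0.76 to 0.85).

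**Figure D4:**
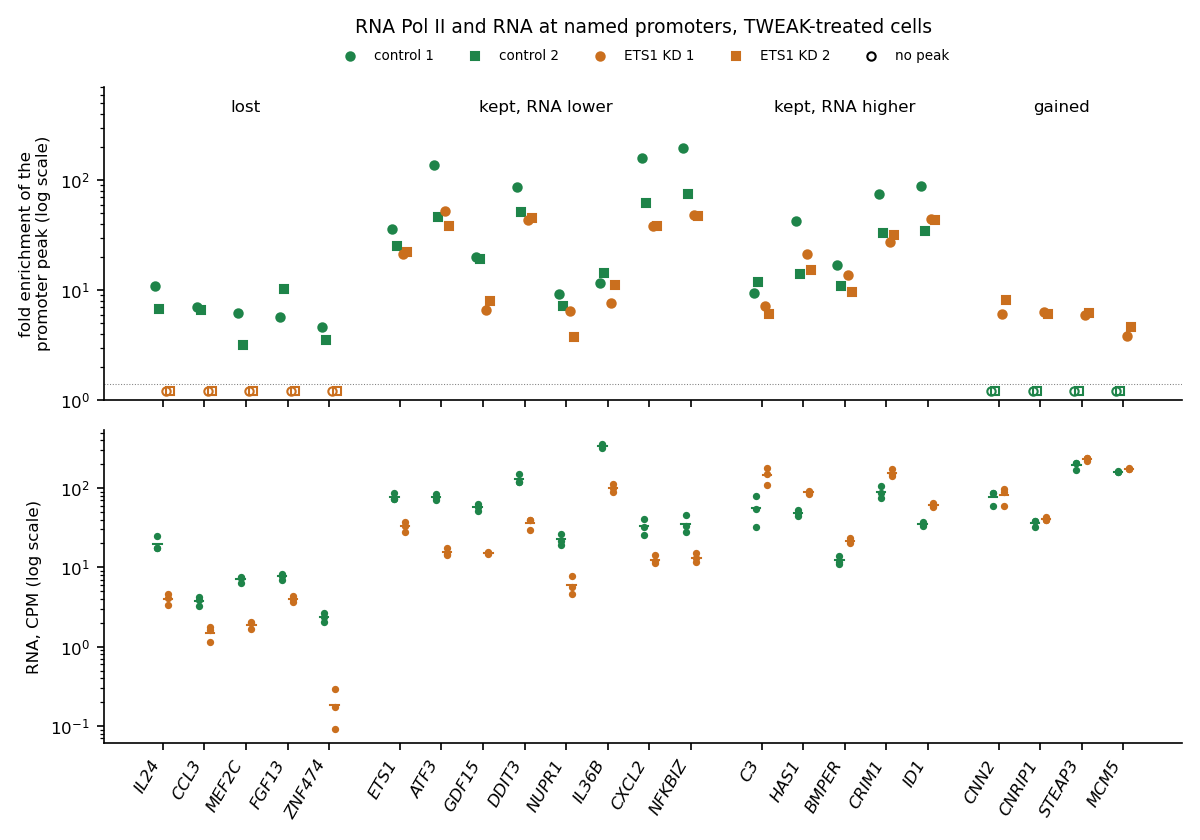
RNA Pol II fold enrichment of the strongest promoter peak in each library (top, log axis) and RNA in CPM in each library (bottom, log axis) for named genes with lost, kept or gained promoters. Green marks control and orange *ETS1* KD cells, all with TWEAK, open symbols stand for no peak, and short lines are means of 3 RNA libraries. RNA differs without overlap at *IL24*, *ATF3* and *GDF15*, and overlaps at *CNN2*.

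Most genes of NF-κB signalling kept RNA Pol II at the promoter. Of 23 pathway genes, 20 promoters were kept and 0 lost or gained, and 1 of 23 tested had lower RNA, where 62.7% of all promoters with a peak were kept, 4.68% were lost and 1.2% of all protein-coding genes tested had lower RNA. The lists below are read against the same shares. Genes without any peak do not enter the shares of promoters, so their number is given for each list that has them. The gene with lower RNA was *NFKBIZ*, an atypical IκB that cooperates with p50 and p52, named after its values were seen. *NFKBIZ* had a fold enrichment of 195 and 74.3 in control and 48.3 and 47.3 in *ETS1* KD cells, with 37.5 and 66.1 without TWEAK. Its RNA was at 28.3, 33.0 and 45.5 CPM in control and 13, 11.6 and 15.1 CPM in *ETS1* KD cells (−1.42 ± 0.22, adjusted p = 0.0054, edgeR). *NFKB2*, the source of p52, had 38.0 and 10.8 against 9.75 and 6.76, so that control replicate 1 stood far above the rest. *NFKB2* RNA was at 235, 289 and 346 CPM against 209, 234 and 273 CPM, which overlap (−0.28 ± 0.17, adjusted p = 0.61, edgeR). The 20 kept promoters had a median normalised difference of −0.23, and 13 were below 0.

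*ERN1*, which encodes the stress sensor IRE1α and was singled out by the study, kept its promoter peak. Its fold enrichment was 85.8 and 53.1 in control and 40.1 and 37.9 in *ETS1* KD cells, against 20.5 and 36.1 without TWEAK. Both *ETS1* KD values were below both control values, but the normalised difference was −0.09. The study reports that *ETS1* KD reduced p52 at this promoter. It also reports that the rise of RNA Pol II, RNA and IRE1α protein with TWEAK was then gone. In the lists used here, the promoter had a p52 peak in control replicate 2 (9.97) but not in replicate 1. No p52 list of *ETS1* KD cells had one. *ERN1* RNA was at 12.8, 17.0 and 25 CPM in control and 13.5, 11.5 and 15.7 CPM in *ETS1* KD cells, which overlap (−0.43 ± 0.24, adjusted p = 0.546, edgeR).

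Chemokine and cytokine genes were the list with the lowest median difference of the peak at kept promoters. Of its 21 promoters, 10 had no peak in any list, against 9004 of all 20046 protein-coding genes. Of 21 genes, 6 promoters were kept and 0 lost or gained, and 3 of 16 tested genes had lower RNA (*IL6*, *CXCL2* and *IL1A*) and 0 higher. *CCL3* and *IL24*, described above with lost promoters and lower RNA, are not members of this list. The 6 kept promoters had a median normalised difference of −0.56, with 4 below 0, and the list had a median RNA change of −0.33. *CXCL2*, a neutrophil chemokine, had a fold enrichment of 159 and 61.7 in control and 38.1 and 38.5 in *ETS1* KD cells, against 15 and 26.5 without TWEAK. *CXCL2* RNA was at 25.4, 32.3 and 41.2 CPM against 11.3, 12 and 14.2 CPM (−1.40 ± 0.24, adjusted p = 0.0109, edgeR), a call lost without control replicate 3 or *ETS1* KD replicate 1 or 2 (−1.38 to −1.21). The *IL1A* call was lost without *ETS1* KD replicate 3 (−1.24). The *CXCL2* promoter had a p52 peak in both control lists and in all 4 p52 lists of *ETS1* KD cells.

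Genes of the ATF4 response, which adapts cells to amino acid shortage and stress, included several with lower RNA. Of 16 genes, 8 had lower RNA (*ATF4*, *DDIT3*, *TRIB3*, *ASNS*, *CHAC1*, *SESN2*, *DDIT4* and *SLC3A2*) and 0 higher, with a median of −0.79. The call of *DDIT4* was lost without any 1 RNA library (−1.51 to −1.24), that of *ASNS* without any but control replicate 1 (−1.62 to −1.30), and that of *ATF4* without control replicate 2 or *ETS1* KD replicate 2 or 3 (−0.58 to −0.53). The promoters of the list were kept in 11 cases and lost in 1, *VLDLR*, a lipoprotein receptor (7.96 and 4.71 in control cells), whose RNA had a log2 fold change of 0.33 (adjusted p = 0.488). The 11 kept promoters had a median normalised difference of −0.02. Of the genes with lower RNA, *TRIB3* had a promoter peak only in control replicate 1 (5.24), *ASNS* in control replicate 1 (14.4) and *ETS1* KD replicate 1 (5.47), and *CHAC1* in both control libraries (9.43 and 6.21) and *ETS1* KD replicate 1 (4.14). *SESN2* kept its promoter and had the 3 lost sites in its body given above. Unfolded protein response genes had 11 of 13 promoters kept and 3 genes with lower RNA, the chaperones and degradation factors *HSPA5*, *HERPUD1* and *DNAJB9*. The call of *DNAJB9* was lost without any 1 library but *ETS1* KD replicate 2 (−0.95 to −0.84). The list had a median RNA change of −0.37, a median normalised difference of −0.13, and 10 of 11 promoters below 0.

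Interferon genes were the list with the most lost promoters. Of 20 genes found, 7 promoters were kept, 5 had no peak and 3 were lost, where 4.68% of all promoters with a peak were lost. The lost ones were those of *IFIH1*, a sensor of viral RNA (5.76 and 4.66), *IFIT3* (3.19 and 7.28) and the GTPase gene *MX2* (6.54 and 6.21). Their RNA had log2 fold changes of −0.33, −0.38 and −0.65, none past the threshold (adjusted p of 0.543, 0.659 and 0.12, edgeR). *MX2* RNA was at 4.13, 4.33 and 5.08 CPM in control and 2.76, 3.46 and 2.43 CPM in *ETS1* KD cells, without overlap. The 1 gene of the list called, *IFIT2*, was lower (−1.70, adjusted p = 0.00519) and had a promoter peak only in control replicate 2.

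AP-1 and immediate early genes kept all 15 promoters, and *ATF3* alone of them was lower in RNA. ETS family genes had 12 of 27 promoters kept, 0 lost and 11 without a peak, and *ETS1* itself was the 1 gene called of 19 tested. Invasion proteases had 8 of 14 promoters kept and 5 without a peak, with a median normalised difference of 0.45. In RNA, 1 gene was lower (*MMP1*, a collagenase, with no promoter peak) and 1 higher (*TIMP1*, an inhibitor of these enzymes). Matrix and adhesion genes had 16 of 24 kept, 4 without a peak and 1 gene higher (*COL4A2*). The call of *COL4A2* was lost without any 1 RNA library (0.88 to 0.99), and that of *TIMP1* without control replicate 1 or 2 or *ETS1* KD replicate 1 or 3 (0.68 to 0.80). Cell cycle and replication genes had 18 of 25 kept, 1 without a peak and 1 gained, *MCM5*, a subunit of the replicative helicase (3.83 and 4.62 in *ETS1* KD cells). In edgeR 0 of 25 were called, with a median RNA change of 0.28. *MCM5* RNA was at 162, 161 and 158 CPM against 175, 176 and 176 CPM (0.13 ± 0.09, adjusted p = 0.671). Ribosomal protein genes, which rely on steady transcription, had 78 of 85 promoters kept, 5 without a peak, a median RNA change of −0.03 and a median normalised difference of 0.05.

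The fold enrichment of the 9503 kept sites was tested site by site with limma after quantile normalisation. At an adjusted p under 0.05, 10 sites (0.105%) were higher and 1 (0.0105%) lower in *ETS1* KD cells, and 965 passed an unadjusted p under 0.05. The site with the clearest rise lay in intergenic sequence 54316 bp from the start of *IFFO2* (chr1:19010140-19011468), at 7.62 and 5.80 in control and 22 and 22.1 in *ETS1* KD cells (log2 difference 2.16 ± 0.31, adjusted p = 0.00127). Others with a rise in both scales were at *MIR100HG*, a microRNA host gene (chr11:122175407-122181845, 5.76 and 9.17 against 15.9 and 21.3), near *HMGCS1*, an enzyme of sterol synthesis (chr5:43280100-43290122, 5.62 and 8.24 against 16.1 and 17.4), 31649 bp from *MBOAT1* (chr6:20243393-20244512, 15.3 and 8.43 against 21.9 and 24.8), and at the histone genes *H3C7* and *H2BC9* (chr6:26249558-26250848, 23.3 and 23.5 against 36.1 and 37.2). All 5 rose in fold enrichment as deposited, against the general lower level of the *ETS1* KD libraries.

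The 5 other sites past the threshold, read after their values were seen, lay at *H3C2*, *TMEM158*, *VMP1* with *MIR21*, *TTI2* with *SNORD13*, and 67589 bp from *INSIG1*. At *VMP1* and *TTI2* the values as deposited overlapped between groups (97.3 and 63.0 against 74.6 and 117, and 99.4 and 61.7 against 94.0 and 78.5), so these calls rest on the normalised values. The site that was lower was the wide peak of *EGR1*, an immediate early factor (chr5:138463359-138486031). This peak was at 392 and 169 in control and 148 and 156 in *ETS1* KD cells (−0.56 ± 0.10, adjusted p = 0.00865, limma). As deposited, control replicate 1 stood far above the rest, and control replicate 2 was close to the *ETS1* KD values. *EGR1* RNA had a log2 fold change of 0.56 (adjusted p = 0.613, edgeR). Without either *ETS1* KD library 0 sites passed in each direction, with 681 and 636 at an unadjusted p under 0.05.

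**Figure D5:**
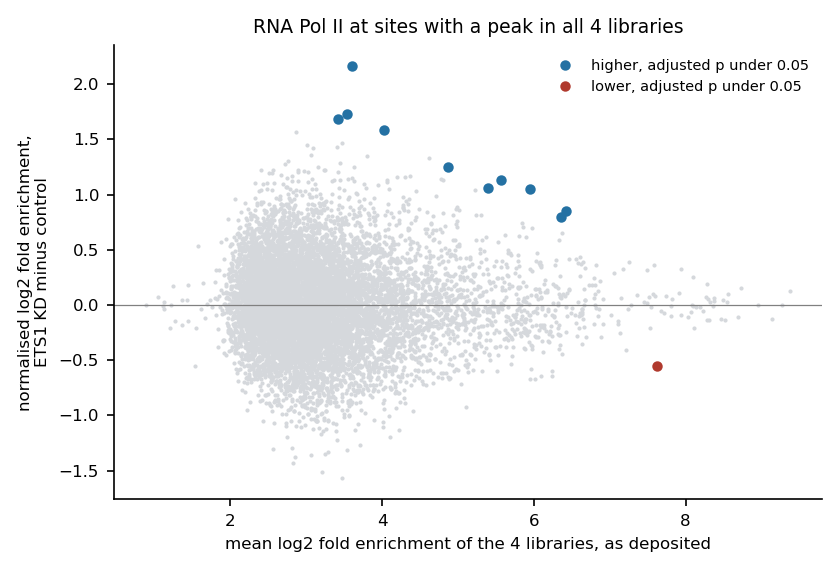
Difference in RNA Pol II at the 9503 sites with a peak in all 4 libraries (vertical axis, log2 fold enrichment after quantile normalisation, *ETS1* KD minus control) against the mean log2 fold enrichment as deposited (horizontal axis). Each dot is a site, and the 10 higher (blue) and 1 lower (red) at an adjusted p under 0.05 stand out from a cloud centred on 0.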

How the data were processed

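The comparison, gene lists and site classes were chosen with earlier results of these data known, and the libraries by their labels. For RNA Pol II, the authors used Trimmomatic for trimming and Bowtie2 for mapping to hg38, called peaks per library with MACS2 with subtraction of the input, and removed blacklisted regions. The deposited lists give the fold enrichment as a ratio and −log10 of the p-value and q-value at each summit, as the authors' peak caller wrote them. Which input served which list and the depth are not given in the sources used here. For RNA, made from poly(A) transcripts, the authors mapped with STAR and counted with featureCounts, and the deposited values are raw counts. The strand setting is not given, so antisense partners cannot be told apart. The study's differential binding analysis needs reads, and peak presence was compared instead.

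Genes were filtered with filterByExpr and tested with edgeR 4.0.16 (TMM, quasi-likelihood, 12 libraries in 4 groups, Benjamini-Hochberg at 0.05, prior count of 2 for log2 CPM) in R 4.3.3. Kept sites were tested with limma 3.58.1 on log2 fold enrichment, quantile normalised, which drops every site without a value in all 4 libraries. Both tests were first run on simulated data. All replicates differed beyond sampling noise and were counted singly. Intervals are exact (Clopper-Pearson, 95%). Named by rule were *ETS1*, *NFKB2* and *ERN1*, the 8 lost and 8 gained promoters with the strongest weaker peak, the 5 genes per state and direction with the largest RNA change past the threshold (mean log2 CPM of at least 1), the 5 strongest lost and gained sites outside promoters, list genes with lost or gained promoters, and the 5 kept sites with the largest change each way. Alternatives were DESeq2 1.42.0, no filter, upper-quartile scaling, 2 groups only, a replicate block, each replicate left out, lists of equal length, −log10 q of at least 5, other promoter windows, peaks in either library, and summits within 250 bp. Added after the data were seen were lists of equal length for gene bodies and left-out libraries for kept promoters. Overlaps used Python 3.11.15 and pandas 2.3.3, sequences samtools 1.23.1, and figures matplotlib 3.10.9. Input samples and p52 lists of *ETS1* KD cells enter only where named.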

Additional observations from a re-analysis of the deposited data

How the results depend on the processing

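The rules for a site decided most counts. Lost sites numbered 1256 at −log10 q of at least 5, 1471 with lists of equal length and 31423 with a peak in either library. Kept sites numbered 5472 at −log10 q of at least 5, 18762 with a peak in either library and 6260 with summits within 250 bp, and gained sites 245 at −log10 q of at least 5 and 15404 with a peak in either library. At promoters, 805 were lost at −log10 q of at least 5, and 1632 were lost and 314 gained with a peak in either library. With −log10 q of at least 5, a lost site or promoter can still hold a weaker *ETS1* KD peak. Without 1 RNA Pol II library at a time, lost sites were between 3413 and 25539 and gained sites between 1904 and 10366, lost promoters between 794 and 1355 and gained promoters between 117 and 264. The highest count of lost sites came without control replicate 2, which leaves the longest list as the only control. Genes with lower and higher RNA numbered 332 and 138 in DESeq2, 358 and 111 without a filter on low counts, and 91 to 131 and 11 to 25 without 1 RNA library. At kept promoters they were 94 and 70 in DESeq2, 84 and 44 without the filter, and 32 to 40 and 1 to 10 without 1 library. At lost promoters, 2 genes were higher in DESeq2 and 1 without the filter, and at gained promoters 1 was higher with lists of equal length and 1 with a window of 2000 bp upstream to 500 bp downstream. With lists of equal length, 0 genes with lost sites in the body were higher. Kept sites with higher and lower fold enrichment numbered 4 and 2 with median centring in place of quantiles, and 0 to 123 and 0 to 66 without 1 library. Pairing by replicate number was not seen in RNA. Deviations from the group means of same-numbered RNA libraries correlated at −0.186, −0.304 and 0.354, while control 1 and *ETS1* KD 2 reached 0.488. For RNA Pol II libraries the value was 0.0816. With 2 pairs only, it cannot decide whether those libraries are paired. With the replicate block, 204 genes were lower and 48 higher in RNA, with 5 lower at lost and 58 lower and 22 higher at kept promoters, and 52 kept sites were higher and 21 lower in fold enrichment. Without *ETS1* KD replicate 1 or 2, gained sites (10366 and 6828) outnumbered lost sites (3413 and 3905), opposite to the counts with all libraries. A gained site then needed a peak in the remaining *ETS1* KD list only, while a lost site still needed both control peaks. The 2 counts are therefore not alike, and their order says nothing on direction. The cause of the other shifts was not tested. Peaks near the threshold of the peak caller, with unknown depth, limit every count of lost and gained sites.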
